A study of Mus musculus with 4 samples.

Results

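The nuclear‐encoded genes of the mitochondrial respiratory chain were followed through RNA‐seq of 4 mouse stem cell samples, with 1 sample per condition and no replicates. Members were all protein‐coding genes with a symbol beginning with Nduf, Uqcr, Atp5 or Cox4 to Cox8, plus Sdha, Sdhb, Sdhc and Sdhd. This rule took 92 of the 37620 genes in the count tables. By complex, 41 genes belonged to complex I, 4 to complex II, 8 to complex III, 20 to complex IV and 15 to complex V. The remaining 4 (Atp5s, Atp5sl, Atp5l‐ps1 and Cox4nb) carry a matching symbol without coding for a subunit.

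The respiratory chain sits in the inner mitochondrial membrane. Complex I (NADH dehydrogenase, the Nduf genes) and complex II (succinate dehydrogenase, the Sdh genes) pass electrons to ubiquinone, complex III (the Uqcr genes) passes them to cytochrome c, and complex IV (cytochrome c oxidase, the Cox genes) passes them to oxygen. Complexes I, III and IV pump protons, and complex V (ATP synthase, the Atp5 genes) uses the gradient to make ATP. Most subunits are coded in the nucleus and a few in the mitochondrial genome, and all except those of complex II are assembled from both. Pluripotent cells are known for a high rate of glycolysis beside a working respiratory chain.

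The 3 mouse embryonic stem cell (mESC) samples were R1 cells after 2 days in feeder‐free medium with serum. All 3 received 2i, which combines 3 µM CHIR99021 against GSK3 with 1 µM PD0325901 against MEK. This pair alone, without LIF, is called 2i−L. The 2iJ sample further received JAK inhibitor (2 µM). For 2iJ+B−A, the 2iJ additions were joined by BMP4 at 10 ng/ml and ALK5 inhibitor II at 10 µM. The fourth sample was the trophoblast stem cell (TSC) line F4, which also carries the label day 2, and its medium is not given in the labels. The cell line, the medium and the cell type of the TSC sample cannot be told apart, and BMP4 and the ALK5 inhibitor were added together.

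Counts on genes ranged from 33913984 to 36964392 per sample, and 3 counts, the limit taken for detection, corresponded to 0.0799 to 0.0902 CPM, the count relative to the normalized library size. The summed level of 10 mESC marker genes was 5533, 4861, 3070 and 721 CPM in the samples 2i−L, 2iJ, 2iJ+B−A and TSC. That of the 9 TSC marker genes found was 225, 285, 1327 and 3444 CPM, with no marker of either list at 0 in any sample. Of the 1327 CPM in 2iJ+B−A, Krt8 held 553 and Krt18 521. From 2iJ to 2iJ+B−A, 6 of the 9 TSC markers were at least 1.5‐fold higher (11.9% of all genes). Only Eomes was at least 1.5‐fold lower (8.72% of all genes), from 10.7 to 2.74 CPM. Elf5 had 1, 2, 5 and 10471 counts in the order 2i−L, 2iJ, 2iJ+B−A and TSC. Of 10 fibroblast genes, which would mark feeder cells, the summed level was 50.2, 43.9, 41.8 and 15.8 CPM, with 3 at 0 in TSC. These are bulk samples, so that a lower level in a fraction of the cells and a lower level in every cell cannot be told apart.

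Levels are CPM on libraries scaled with edgeR's TMM factors, and differences are log2 ratios after adding 0.5 CPM, so that changes of weakly expressed genes are understated. A gene was called higher or lower when it differed by at least 1.5‐fold on this scale and the 95% Clopper–Pearson interval of its counts excluded no difference. The interval covers counting error only, not the variation between cultures, and no p‐value is given. Of the 92 members, 85 reached 1 CPM in at least 1 sample, as did 14263 genes in all. The 7 members below it were Atp5l‐ps1, a short second entry for Ndufb8 with 0 counts in each sample, and the tissue isoforms Cox4i2, Cox6a2, Cox7b2, Cox8b and Cox8c. A count of 0 allows up to 3 counts.

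Subunits of complex IV had the highest median level per length in each sample. The median subunit of complex I was at 49.2, 46.2, 43.2 and 47.9 CPM per kb of exon in 2i−L, 2iJ, 2iJ+B−A and TSC, that of complex II at 58.1, 58.9, 53.9 and 56.9, that of complex III at 115, 108, 101 and 112, that of complex IV at 228, 236, 224 and 190, and that of complex V at 116, 102, 89.1 and 88.7. The order of complex IV over complex I thus held in each sample, whereas complexes III and V were close to each other. Cox4i1, the ubiquitous form of subunit 4 of cytochrome c oxidase, was the highest member of complex IV, with 705, 685, 595 and 670 CPM per kb. Atp5b, the catalytic β subunit of ATP synthase, led complex V with 537, 516, 470 and 435 CPM per kb.

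In the other complexes the leading subunits were lower. Uqcrb, a small subunit of complex III, was at 183, 187, 201 and 120 CPM per kb. Sdhd, which anchors complex II in the membrane, was at 96.6, 93.9, 90.7 and 91.2 CPM per kb. Ndufb9, an accessory subunit of complex I, was at 102, 120, 125 and 133 CPM per kb. By the median over the 4 samples, the lowest subunits were Ndufb2 in complex I, Sdhc in complex II, Uqcrq in complex III, Cox6c in complex IV and Atp5g1 in complex V. In 2iJ and 2iJ+B−A, Sdhb was below Sdhc (36.3 against 40.4 and 34.88 against 34.98 CPM per kb) and Atp5e below Atp5g1 (26.9 against 31.0 and 23.2 against 24.4 CPM per kb). Levels per length use all annotated exon bases, which for Cox6c are 3567 against 738 in the transcript aligned here. Ndufb2 stood apart from the other subunits of complex I, with 101, 102, 96 and 120 counts in all and between 0.454 and 0.607 CPM per kb. The annotated exons of Ndufb2 add up to 5628 bases, and 25.7% of the read pairs in its exons lay on the opposite strand. The annotation release used for the counts is not given, and whether its Ndufb2 model holds the main transcript was not tested, so that this level is uncertain.

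**Figure D1:**
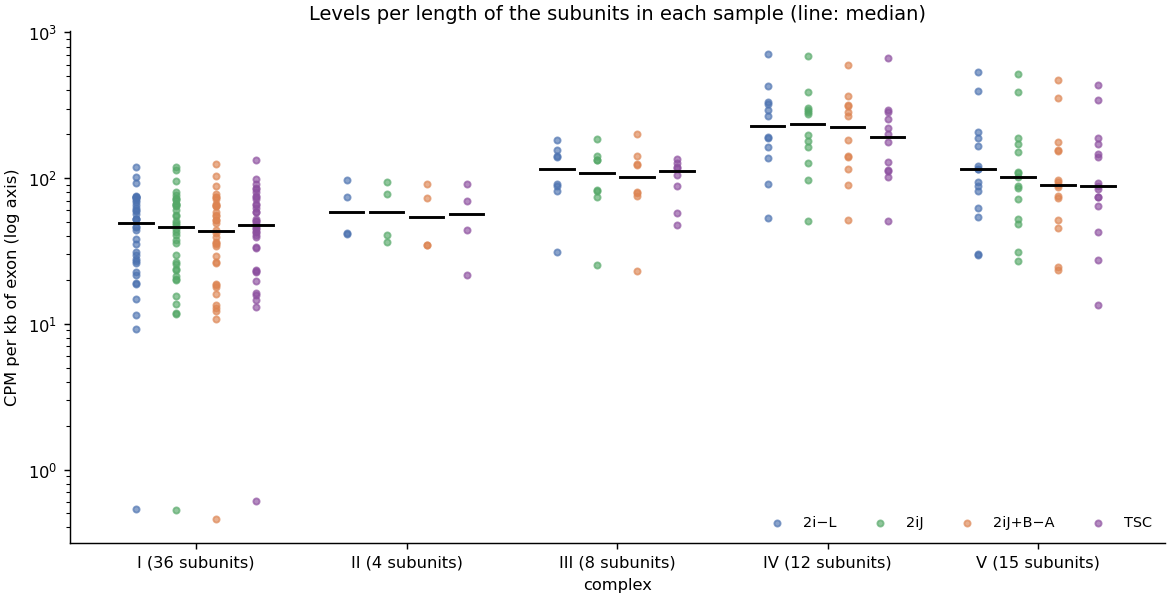
Level per length (CPM per kb of exon, log axis) of the 75 subunits that reached 1 CPM, without tissue isoforms, by complex and sample. Each point is 1 gene and each black line a median. The 4 samples overlap within every complex, complex IV lies highest, and the single low points of complex I are Ndufb2.

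As a background to their regulation, many nuclear respiratory chain genes are known to carry promoter sites for NRF1, for ETS factors such as GABP and for YY1. Promoter windows from 250 bases before to 50 bases after a start site were taken from RefSeq (GRCm38.p6) and found for 75 members, in 80 windows. The NRF1 core, gcgcatgc read on either strand, was in 11 of the 80 windows (13.8%) and in 2.71% of all 32851 windows. The ETS core ccggaag was in 21.2% of the members' windows and 8.86% of all, the YY1 core aagatggc in 15.0% and 2.75%, and the ERR core caaggtca in 5.0% and 1.56%. These matches describe the letters in the windows and no binding. One example from each of complexes I, II, IV and V is shown for NRF1, together with the ETS matches of 3 members that were higher in TSC. The ETS core was also before the start site of members that were not called, such as Atp5e, Sdhd, Cox6b1 and Uqcrh. No window was found for Ndufs1, Sdhc and Uqcrb, which were lower in TSC, or for Uqcrq, which was higher. Whether the core goes with the level in TSC was not tested. Capitals mark the core, and all stretches lie before the start site:
Ndufa8, NRF1 core, chr2:36049339-36049356, minus strand: cgctggagacGCATGCGC
Sdhb, NRF1 core, chr4:140961207-140961234, plus strand: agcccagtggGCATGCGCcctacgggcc
Cox6a1, NRF1 core, chr5:115349101-115349128, minus strand: ggaacggggcGCATGCGCgctctcgctc
Atp5g2, NRF1 core, chr15:102671070-102671097, minus strand: ctccggccgcGCATGCGCagagccttcc
Ndufaf1, ETS core, chr2:119662836-119662862, minus strand: gggaccacaaCCGGAAGcgtggcgaac
Ndufs3, ETS core, chr2:90904732-90904758, minus strand: ccgcgtccgcCCGGAAGaagagtcact
Atp5h, ETS core, chr11:115419941-115419967, minus strand: aaggagagaaCTTCCGGcaactctctt

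Between 2iJ and 2i−L, which asks what JAK inhibition adds to 2i without LIF, respiratory chain genes were nearly level. Of the 85 members 0 were higher and 1 was lower in 2iJ, against a background of 9.29% of all genes called in either direction (5.38% higher, 3.91% lower). The median log2 ratio was −0.064 for the members and 0.005 for all genes, with interquartile ranges of 0.143 and 0.314. Of the 85 log2 ratios, 64 were below 0, as were 49.0% of those of all genes. Within 0.25 of 0 lay 76 members (89.4%) and 67.3% of all genes. At 2‐fold, 1 member and 2.15% of all genes were called. Of the 83 members that reached 10 CPM in any sample, a limit added after the data were seen, 0 were called at 1.5‐fold, against 5.63% of such genes. By complex, the medians were −0.043 for complex I, −0.039 for II, −0.102 for III, −0.065 for IV and −0.133 for V.

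The single gene called was Ndufa4l2, a paralog of the complex IV subunit Ndufa4 that is known to be induced by hypoxia through HIF1. It fell from 209 counts (6.28 CPM) in 2i−L to 29 counts (0.845 CPM) in 2iJ, a log2 ratio of −2.34 (interval −2.71 to −1.94). Below it followed Cox7a1 at −0.45 and the complex I subunits Ndufv3 at −0.34 and Ndufv2 at −0.30, none of which was called. At the other end, Cox6b2 had a log2 ratio of 0.36, Ndufs5 of 0.35 and Ndufb9 of 0.23, also not called.

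The comparison of 2iJ+B−A with 2iJ asks what BMP4 with Activin receptor inhibition does to these cells. It moved more genes, with 20.6% of all genes called (11.9% higher, 8.72% lower), but among the members 0 were higher and 2 were lower. The median log2 ratio was −0.107 for the members and −0.002 for all genes. Of the 85 values, 61 were below 0, as were 50.2% of those of all genes. The interquartile range was 0.229, against 0.5 for all genes. At 2‐fold, 1 member and 8.97% of all genes were called, and above the 10 CPM limit 1 member and 16.3% of genes were called at 1.5‐fold. Medians by complex were −0.109, −0.073, −0.081, −0.104 and −0.137 for complexes I to V. The genes called were Ndufa4l2 and Cox7a1, both tissue isoforms of complex IV, and no subunit of complexes I, II, III or V was among them. Among the members of these 4 complexes, log2 ratios ran from −0.52 for the assembly factor Ndufaf2 to 0.27 for the core subunit Ndufv2. Ndufa4l2, also the 1 member called at 2‐fold, was under 1 CPM in both samples (0.845 CPM in 2iJ and 0 in 2iJ+B−A). It passed the 1 CPM filter only through 2i−L (6.28 CPM) and TSC (2.65 CPM).

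**Figure D2:**
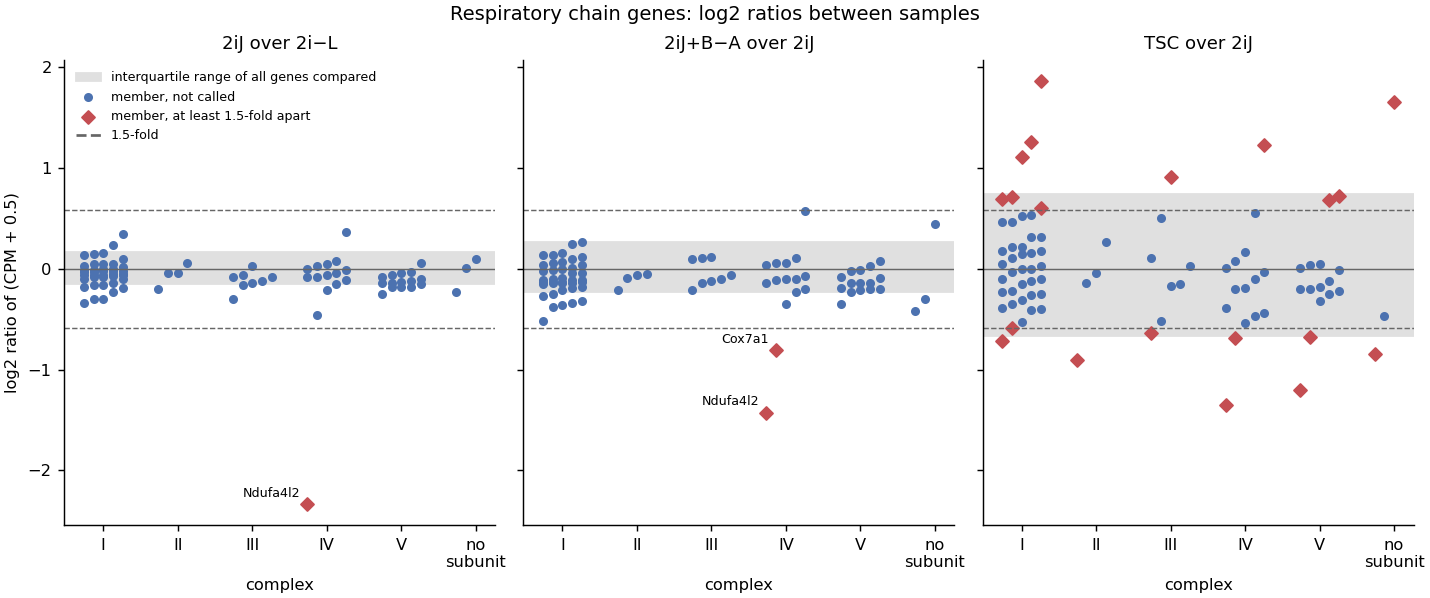
Log2 ratios of (CPM + 0.5) of the 85 members, by complex, in 3 comparisons that share the 2iJ sample. Diamonds are members called at least 1.5‐fold apart, dashed lines mark 1.5‐fold, and the gray band is the interquartile range of all 14263 genes. Calls number 1 and 2 in the mESC comparisons and 20 in TSC over 2iJ. Ndufa4l2 has 0 counts in 2iJ+B−A, where its point is set by the added 0.5 CPM and is no estimate of a fold.

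Ndufa4l2 (ENSMUSG00000040280, chromosome 10 from 126951995 to 126954208 of NCBIM37, plus strand) had the widest range of the members among the mESC samples. Its counts were 209, 29, 0 and 93 in the order 2i−L, 2iJ, 2iJ+B−A and TSC. With the floor of 3 counts, 2iJ+B−A was at least 78.7‐fold lower than the measured level of 2i−L, at least 10.6‐fold lower than that of 2iJ and at least 33.2‐fold lower than that of TSC. The counting error of the other sample, with only 29 counts in 2iJ, is not in these bounds. None of its transcript matched another place in the genome. Relative to the pair it forms with Ndufa4, per exon length, it made up 2.41% (95% interval 2.10 to 2.76), 0.319% (0.214 to 0.459), 0% (at most 0.0357) and 1.35% (1.09 to 1.65) in this order. Ndufa4 itself stayed at 130, 135, 141 and 99.4 CPM and was not called in any comparison.

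Other genes known to be induced by hypoxia were listed for comparison. Of 13 such genes, 10 were lower and 0 higher in 2iJ than in 2i−L, with a median log2 ratio of −0.856. Of all genes, 3.91% were lower and 5.38% higher. Bnip3, a mitophagy receptor, was at 126, 57.9, 19.1 and 122 CPM in 2i−L, 2iJ, 2iJ+B−A and TSC, Egln3, an oxygen‐sensing prolyl hydroxylase, at 32.1, 8.53, 3.94 and 7.92 CPM, and Vegfa, an angiogenic growth factor, at 32.2, 8.59, 29.4 and 37.6 CPM. Bnip3 thus had the same order of samples as Ndufa4l2, and Vegfa did not. In 2iJ+B−A over 2iJ, 5 of the 13 were higher and 6 lower, against 11.9% and 8.72% of all genes. In TSC over 2iJ, 8 were higher and 0 lower, against 28.9% and 27.5% of all genes. Oxygen and cell density were not among the labels, and the part of these genes in the Ndufa4l2 values was not tested.

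Cox7a1 and Cox6b2 moved in opposite directions across the samples. Cox7a1 (ENSMUSG00000074218, chromosome 7 from 30969190 to 30971047 of NCBIM37) codes for the heart and muscle form of subunit 7a and had 592, 442, 269 and 166 counts in 2i−L, 2iJ, 2iJ+B−A and TSC, or 17.8, 12.9, 7.16 and 4.73 CPM. It was lower in 2iJ+B−A than in 2iJ (log2 ratio −0.80, interval −1.01 to −0.59) and lower in TSC than in 2iJ (−1.36, interval −1.60 to −1.11). Its share of the pair with the ubiquitous Cox7a2, per exon length, was 20.6, 16.5, 12.2 and 9.10% in the same order, and the 95% intervals of the 4 shares did not overlap. Of the Cox7a2 transcript, 59.0% matched elsewhere, and the effect on the shares was not tested. A list of 9 striated muscle genes summed to 22.0, 30.1, 63.5 and 7.46 CPM, of which Acta1 alone made up 14.5, 19.8, 53.9 and 0.03 CPM. In 2iJ+B−A over 2iJ, 1 of the 6 that reached 1 CPM was higher and 0 lower, against 11.9% and 8.72% of all genes. The median log2 ratio of these 6 muscle genes was 0.041. Their part in the Cox7a1 values was not tested.

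Cox6b2 (ENSMUSG00000051811, chromosome 7 from 4703396 to 4704696 of NCBIM37), the testis form of subunit 6b, had 373, 501, 825 and 761 counts, or 11.2, 14.6, 22.0 and 21.7 CPM. Between 2iJ+B−A and 2iJ its log2 ratio was 0.57 (interval 0.42 to 0.73), just under the 1.5‐fold limit of 0.585, and it was called with library totals in place of TMM (0.62) and with a pseudocount of 0.1 CPM (0.59). Of the pair with Cox6b1, it made up 5.93% (5.36 to 6.55), 8.0% (7.34 to 8.70), 11.2% (10.5 to 11.9) and 12.2% (11.4 to 13.0). The 3 mESC shares were separate, whereas the intervals of 2iJ+B−A and TSC overlapped. Of the Cox6b1 transcript, 94.1% matched elsewhere, and the effect on the shares was not tested. Of 7 male germ cell genes the summed level was 63.3, 76.2, 56.1 and 39.5 CPM, with 2 or 3 of them at 0 in each sample.

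Other tissue isoforms were at or near the detection limit. Cox4i2, the lung form of subunit 4, had 22, 9, 19 and 6 counts and at most 0.119% of the pair with Cox4i1. Cox7b2 lay between 0.28 and 0.35 CPM and Cox8c at or below 0.41 CPM. Cox6a2, the heart and muscle form of subunit 6a, had 0 counts except for 1 in 2iJ, and Cox8b had 0 in each sample. The ubiquitous forms carried nearly all counts of each pair: Cox6a1 was at 135, 138, 128 and 156 CPM, Cox8a at 234, 211, 200 and 161 CPM, and Cox7b at 167, 154, 140 and 136 CPM. Cox5b was at 167, 165, 177 and 144 CPM and Cox7a2l, a paralog linked to supercomplex assembly, at 105, 111, 103 and 117 CPM, and neither was called in any comparison.

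**Figure D3:**
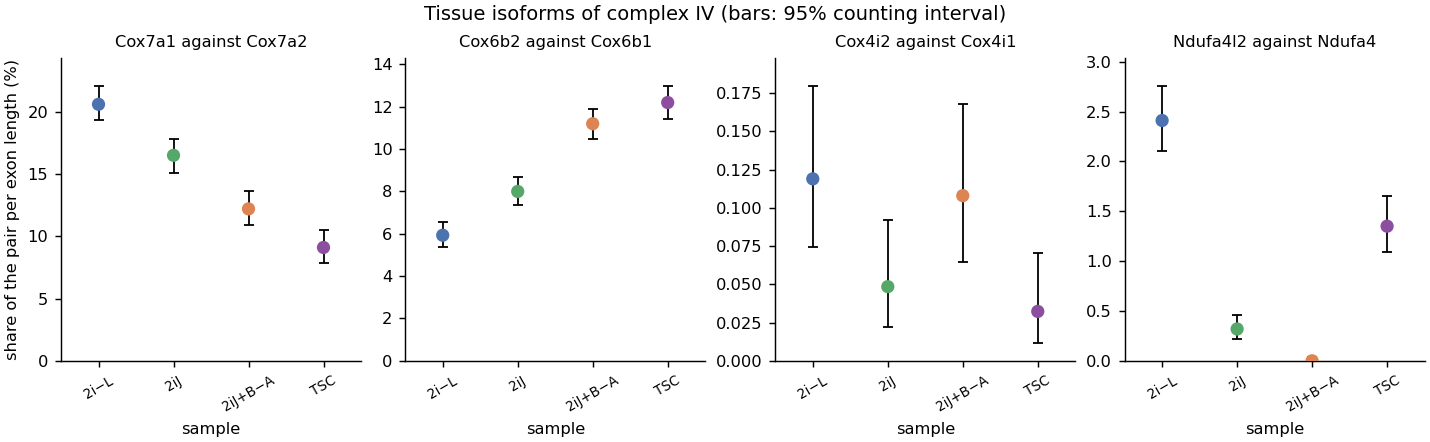
Share of each tissue isoform of complex IV in the sum with its ubiquitous partner, per exon length (%), in the 4 samples. Each axis starts at 0 and has its own scale. Bars are 95% Clopper–Pearson intervals. Cox7a1 goes from 20.6% in 2i−L to 9.10% in TSC, Cox6b2 from 5.93% to 12.2%, and Ndufa4l2 is at 0% in 2iJ+B−A.

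TSC differed from 2iJ in 20 members, 11 higher and 9 lower, or 23.5% of those compared, against a background of 56.4% of all genes (28.9% higher, 27.5% lower). At 2‐fold, 7 members (8.24%) and 37.0% of all genes were called. The median log2 ratio of the members was −0.041 and turned to 0.037 with library totals in place of TMM, so that no direction can be given for the genes as a whole. Their interquartile range was 0.525, against 1.409 for all genes. Above the 10 CPM limit, 22.9% of the members and 51.3% of all genes were called at 1.5‐fold.

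To set aside the choice of 1 mESC sample as the reference, the TSC level was also compared with the range of the 3 mESC samples. TSC lay at least 1.5‐fold above all 3 for 8 members and at least 1.5‐fold below all 3 for 5, together 15.3% of the 85, against a background of 41.5% of all genes (21.3% higher, 20.2% lower). At 2‐fold these were 3 higher (3.53%) and 0 lower, against 25.2% of all genes. The 8 genes above the range were Ndufa8, Ndufs5, Ndufs3, Ndufaf1, Ndufaf3, Uqcrq, Atp5h and Atp5s, and the 5 below were Ndufs1, Ndufb8, Sdhc, Uqcrb and Atp5g1. Complexes I, III and V held genes called on both sides of the range, complex II a gene below it, and complex IV none at 1.5‐fold.

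In complex I, 7 of 40 members lay outside the range at 1.5‐fold. Ndufa8 (ENSMUSG00000026895, chromosome 2 from 35891846 to 35904926 of NCBIM37), an accessory subunit on the intermembrane space side, was at 26.7, 25.5, 30.4 and 61.9 CPM in 2i−L, 2iJ, 2iJ+B−A and TSC. Its log2 ratio of TSC to 2iJ was 1.26 (interval 1.15 to 1.38). Ndufs5, an accessory subunit of the same side, was at 7.97, 10.3, 9.29 and 38.7 CPM, a log2 ratio of 1.86 (interval 1.70 to 2.03) and the largest of all members. Of its transcript, 64.3% matched other places in the genome and 18.3% of its 250‐base windows were identical there, so that its level is uncertain, as STAR counts only read pairs with 1 place. None of the Ndufa8 transcript matched elsewhere.

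Ndufs3, a core subunit of the peripheral arm, was at 56.6, 56.3, 57.9 and 92.5 CPM, nearly the same in the 3 mESC samples, with 84.99% of its transcript matched elsewhere at 88.6% identical bases. Ndufs1, the largest iron–sulfur core subunit of the same arm, went the other way with 280, 265, 243 and 161 CPM, a log2 ratio of −0.72 (interval −0.77 to −0.67). Both belong to the core that is conserved in bacteria. The core subunits Ndufs7, Ndufs8, Ndufv1 and Ndufv2 were not called, with log2 ratios from −0.26 for Ndufv1 to 0.46 for Ndufv2. Among accessory subunits, Ndufa12, with 44.3% of its transcript matched elsewhere, was higher than in 2iJ (46.9, 48.0, 52.3 and 78.0 CPM) and Ndufb8 lower (85.01, 74.6, 81.9 and 49.3 CPM). The call of Ndufb8 rested on a log2 ratio of −0.59 and was lost with DESeq2 size factors (−0.585) and with library totals (−0.51). The accessory subunits as a group had a median log2 ratio of 0.045.

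The assembly factors of complex I named in the rule also divided. Ndufaf1, which acts early in the building of the membrane arm, was at 26.4, 26.4, 26.03 and 40.4 CPM, and Ndufaf3 at 14.3, 12.1, 11.7 and 26.8 CPM. Both were higher in TSC than in all 3 mESC samples, and Ndufaf1 was nearly the same in these 3. Ndufaf4, a partner of Ndufaf3, was at 48.5, 50.2, 39.0 and 34.8 CPM, and Ndufaf2, which is exchanged for Ndufa12 late in assembly, at 21.4, 20.5, 14.1 and 15.4 CPM. Neither of these was called in TSC over 2iJ, with log2 ratios of −0.52 and −0.40.

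In complex II, Sdhc, a membrane anchor that binds heme and ubiquinone, was at 135, 131, 114 and 69.8 CPM, a log2 ratio of −0.91 in TSC over 2iJ (interval −0.98 to −0.83). The other 3 subunits were not called. Sdha, the flavoprotein, was at 289, 300, 283 and 272 CPM, and Sdhb, the iron–sulfur protein, at 93.5, 81.3, 78.1 and 98.0 CPM, so that the ratio between subunits of 1 complex was unequal between TSC and mESC. In complex III, Uqcrq was at 57.1, 46.3, 41.9 and 87.5 CPM and Uqcrb at 160, 163, 176 and 105 CPM. Both are small accessory subunits. Of the Uqcrb transcript 92.9% had a match elsewhere, and its call in TSC over 2iJ was lost with the unstranded count (log2 ratio −0.58). The large core proteins Uqcrc1 and Uqcrc2 and the Rieske protein Uqcrfs1 had log2 ratios of 0.02, 0.51 and 0.10 and were not called.

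Complex IV had no gene at least 1.5‐fold outside the range of the mESC samples. Of its 15 members, 9 (60.0%) had their lowest level in TSC, as did 41.4% of all genes. Cox7a1 came nearest, with 0.66 of its lowest mESC level, and with a pseudocount of 0.1 CPM the members 1.5‐fold below the range were 6 in place of 5. Cox5a was lower in TSC than in 2iJ (228, 197, 183 and 123 CPM, log2 ratio −0.68). Its call was lost with the unstranded count (−0.52), and 89.9% of its transcript matched elsewhere. Of the 12 ubiquitous subunits of complex IV, 9 had a log2 ratio below 0 in TSC over 2iJ, as did 49.9% of all genes. Cox5a alone of the 12 was called. Ndufa4l2 was higher in TSC than in 2iJ and, at 2.65 CPM, lay within the mESC range.

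In complex V, Atp5g1 was at 146, 152, 119 and 65.7 CPM, a log2 ratio of −1.20 in TSC over 2iJ (interval −1.27 to −1.13). Atp5g1, Atp5g2 and Atp5g3 code for the same mature subunit c, the proton‐carrying ring of ATP synthase, with different import sequences. Atp5g2 was at 133, 121, 115 and 122 CPM and Atp5g3 at 254, 237, 206 and 203 CPM, and neither was called. Per exon length, Atp5g1 provided 8.42, 9.47, 8.21 and 4.54% of the sum of the 3 genes, and Atp5g2 58.6, 57.3, 60.0 and 63.9%. Copies limit these shares, as all of the 250‐base windows of Atp5g2 and 12.8% of those of Atp5g1 are found again elsewhere in the genome, and the annotated exons of Atp5g1 add up to 4908 bases.

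Other subunits of complex V moved both ways. Atp5h, subunit d of the stator stalk, was at 137, 129, 127 and 213 CPM (log2 ratio 0.72), with a looser match elsewhere (81.3% identical bases) over 99.7% of its transcript. Atp5d, subunit δ of the central stalk, was at 119, 100, 99.2 and 162 CPM (0.69), and Atp5j2, subunit f of the membrane part, at 142, 126, 110 and 78.8 CPM (−0.68), with 49.5% of its transcript matched elsewhere. The 2 most abundant F1 subunits varied little, with Atp5a1 at 1247, 1218, 1106 and 1075 CPM and Atp5b at 2274, 2187, 1990 and 1844 CPM. Of the genes that are no subunit, Atp5s was higher in TSC (5.65, 4.75, 6.66 and 16.01 CPM). Cox4nb, which lies beside Cox4i1 and codes for a protein of the endoplasmic reticulum, was lower than in 2iJ (121, 122, 90.8 and 67.5 CPM). Cox4i1 itself was at 479, 465, 404 and 455 CPM.

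**Figure D4:**
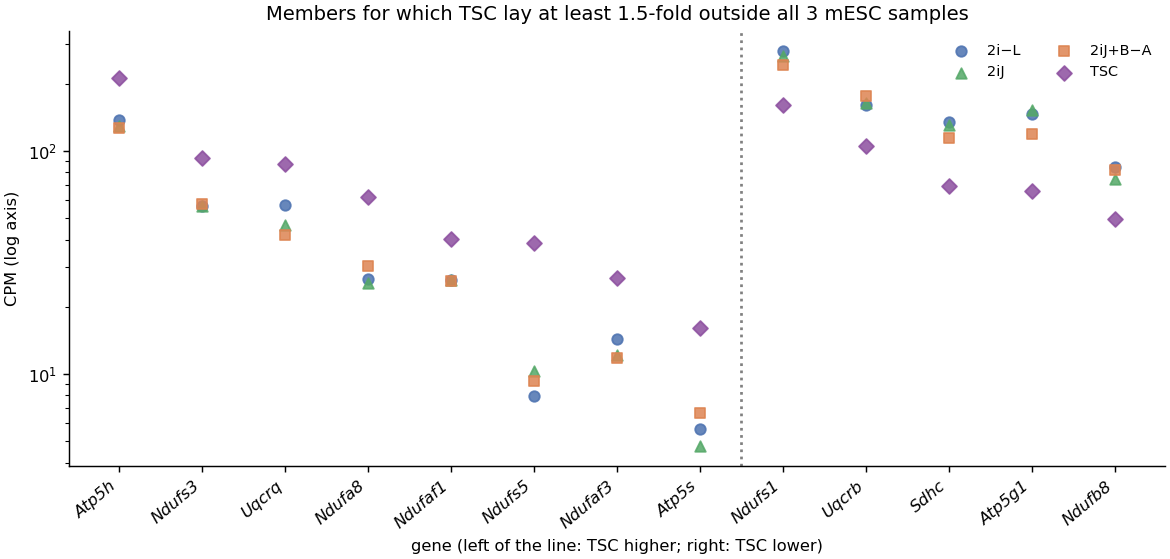
CPM (log axis) in the 4 samples of the 13 members whose TSC level lay at least 1.5‐fold above (left of the dotted line, 8 genes) or below (right, 5 genes) all 3 mESC samples. For each gene the mESC points lie on 1 side of the TSC diamond, with the widest gap for Ndufs5.

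Summed over the members, the share of all gene counts was 1.227, 1.187, 1.148 and 1.157% in 2i−L, 2iJ, 2iJ+B−A and TSC. The counting interval ran from 1.223 to 1.231% in 2i−L, and the differences have no replicate check. With TMM scaling the summed levels were 12659, 12100, 11297 and 11177 CPM, so that the order of 2iJ+B−A and TSC turned with the scaling. Complex V provided the largest part of these counts, with 0.5548, 0.5327, 0.505 and 0.5041%. The share of complex IV was 0.2288, 0.2217, 0.2151 and 0.2039%. The shares of complex I (0.259, 0.253, 0.2498 and 0.2702%) and complex III (0.1064, 0.1009, 0.1051 and 0.1097%) were highest in TSC, but with TMM scaling their summed levels were highest in 2i−L, at 2671.8 against 2610.4 CPM in TSC for complex I and 1097.7 against 1059.8 CPM for complex III. The sample 2i−L held the highest level of 41 of the 85 members (48.2%) and of 22.1% of all genes. For complex V this was 12 of 15 members. In complex I, 21 of the 40 members (52.5%) were highest in TSC, as were 41.4% of all genes.

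The 37 genes of the mitochondrial genome were ordered differently from the nuclear genes. Their share of the counts was 2.498, 2.749, 3.502 and 3.428% in 2i−L, 2iJ, 2iJ+B−A and TSC. Of the 13 mitochondrially encoded subunits 7 reached 1 CPM, and the other 6 were at or below 0.752 CPM in each sample. Among these were mt‐Co2 and mt‐Co3, whose partner mt‐Co1 was at 12590 CPM or more, so that these values cannot be read as levels of expression. Read pairs with several places are not in the counts, and their part was not tested. The shares cover only what was counted. None of the 7 was called between mESC samples, where the median log2 ratio was 0.162 in 2iJ over 2i−L and 0.359 in 2iJ+B−A over 2iJ. Of all genes, 9.29% and 20.6% were called in these 2 comparisons. Cytochrome b (mt‐Cytb) was at 3469, 3880, 5635 and 4039 CPM, and mt‐Co1, the catalytic core of complex IV, at 12590, 13120, 15070 and 17540 CPM. In TSC over 2iJ only mt‐Nd6, which lies on the opposite strand to the other subunit genes, was called, with 90.1, 82.0, 80.6 and 200 CPM. The background there was 56.4% of all genes.

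**Figure D5:**
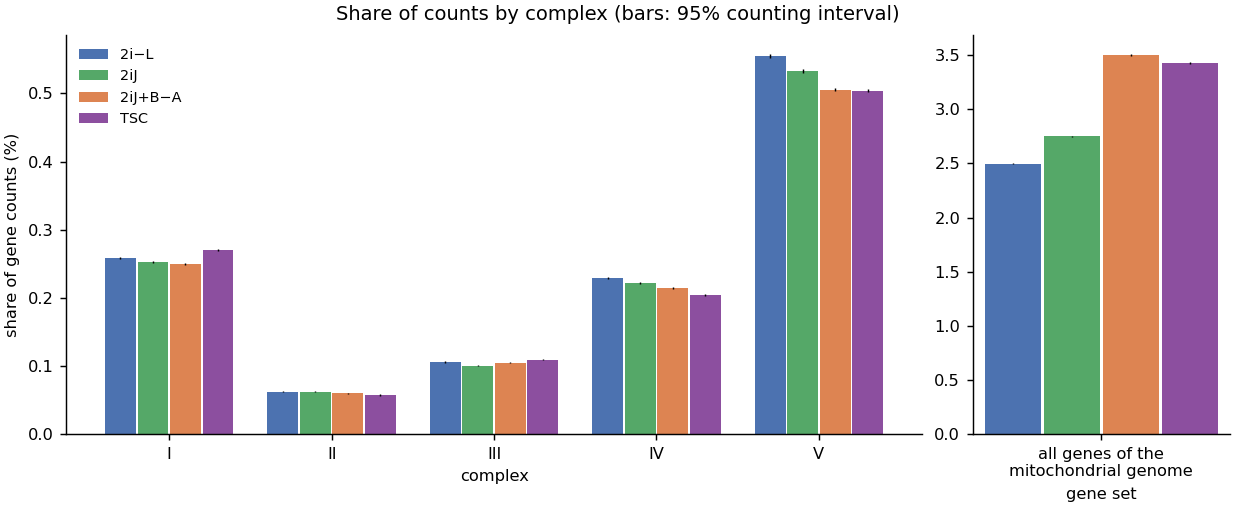
Share of all gene counts (%) taken by the members of each complex (left) and by the 37 genes of the mitochondrial genome (right, own scale) in the 4 samples. Bars start at 0 and error bars are 95% counting intervals. Complex V is highest in 2i−L at 0.5548%, and mitochondrially encoded genes in 2iJ+B−A at 3.502%.

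Neighbouring parts of the pathway were examined with lists of genes. As a background, 9.29% of all genes were called in 2iJ over 2i−L and 20.6% in 2iJ+B−A over 2iJ. Of 26 assembly factors outside the rule, 0 were called between 2iJ and 2i−L and 1, Lyrm7, was higher in 2iJ+B−A. In TSC over 2iJ, 6 of the 26 were higher and 0 lower, with a median log2 ratio of 0.231, where 28.9% of all genes were higher and 27.5% lower. Among these were Lyrm7, a chaperone of the Rieske protein of complex III (0.872, 1.37, 2.96 and 10.4 CPM), Surf1, a complex IV assembly factor (14.5, 13.1, 15.9 and 26.1 CPM), and Bcs1l, which inserts that protein into the complex (27.1, 23.5, 24.5 and 38.3 CPM). The others were Sco2, Cox10 and Taco1. None of 13 coenzyme Q synthesis genes was called in 2iJ over 2i−L, and 1 (Pdss1) was lower in 2iJ+B−A. In TSC over 2iJ, 2 of them were higher and 1 lower, against 28.9% and 27.5% of all genes. Of 13 TCA cycle genes 0 were called between mESC samples and 5 were higher in TSC, namely Idh3a, Ogdh, Dlst, Dld and Suclg2, with 0 lower, against the same background of 28.9% and 27.5%. Idh3a, a subunit of isocitrate dehydrogenase, was at 139, 103, 108 and 265 CPM.

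Of 12 further components of the chain, 0 were called in 2iJ over 2i−L, against 9.29% of all genes. Slc25a5, an ADP/ATP carrier, was at 767, 650, 355 and 284 CPM and was the 1 gene called in 2iJ+B−A over 2iJ, where it was lower. Of all genes, 20.6% were called in that comparison. In TSC over 2iJ 3 were lower (Slc25a5, Usmg5 and Cyct) and 0 higher, where 27.5% of all genes were lower and 28.9% higher. The other carrier, Slc25a4, was at 464, 346, 239 and 472 CPM. Cytochrome c (Cycs) was at 164, 144, 125 and 99.7 CPM and was not called.

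Regulators of mitochondrial biogenesis were called in both directions. Of 20 found, 18 reached 1 CPM, and in TSC over 2iJ 5 were higher and 7 lower (background 56.4% in either direction). In 2iJ+B−A over 2iJ 2 were higher and 1 lower, against 11.9% and 8.72% of all genes. In 2iJ over 2i−L 1 was higher and 0 lower, against 5.38% and 3.91% of all genes. The nuclear respiratory factor Nrf1 was at 72.6, 71.3, 61.6 and 41.1 CPM and the ETS factor Gabpa at 244, 228, 234 and 114 CPM, both lower in TSC. Myc was at 4.90, 8.10, 24.1 and 98.4 CPM and higher in each of the 3 comparisons. The coactivator Ppargc1a had at most 3 counts in each sample, whereas Ppargc1b was at 1.503, 1.08, 3.99 and 11.4 CPM. Esrra was at 17.8, 13.4, 13.3 and 30.3 CPM and Esrrb, which is also a pluripotency gene, at 578, 476, 302 and 248 CPM. Tfam, which packages and transcribes mitochondrial DNA, was at 99.2, 92.7, 86.3 and 90.5 CPM and was not called.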

How the data were processed

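The 4 RNA‐seq samples stand for 1 condition each. Per the study's methods and the submitters' processing notes, poly‐A RNA was made into strand‐specific libraries, sequenced in pairs (CASAVA 1.8.2), trimmed with TrimGalore and cutadapt and mapped with STAR 2.4.2a to NCBIM37. The annotation release is not given in the sources used here. The authors deposited whole‐number counts of read pairs per gene, without normalization or batch adjustment, and the strand column of a reverse‐stranded library was used. Read pairs that mapped to several places (6.722% to 7.006%) are not in the counts, which lowers members with close copies.

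Counts were scaled with edgeR 4.0.16 TMM factors (0.969 to 1.035) in R 4.3.3. Genes under 1 CPM in every sample were left out, and 0.5 CPM was added before log2 ratios. With 1 sample per condition, no model with replicates could be fitted, and a call needed a ratio of 1.5‐fold and a 95% Clopper–Pearson interval that excluded 0. The calls were tested on simulated data. Member transcripts were aligned to the genome with minimap2 2.31. Symbols came from the NCBIM37 annotation, which held 37205 of 37620 identifiers. Tables used Python 3.11.15, numpy 2.4.6, scipy 1.17.1 and pandas 2.3.3, and figures matplotlib 3.10.9.

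Members and gene lists were chosen with earlier results of these data known. Named genes were all called members, the paralog sets, and the highest and lowest subunit per complex. Genes of neighbouring lists and members shown for contrast were named after their values were seen. Alternatives were the unstranded count, other scalings (DESeq2 1.42.0), pseudocounts and filters, and leaving out members with copies.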

Additional observations from a re-analysis of the deposited data

Results flagged for a closer look

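The deposited tables also count read pairs on the strand opposite to each gene, a column that the comparisons did not use. Over the 4 samples the members had 12280 such read pairs, against 1653270 on their own strand, which is 0.737% of both together and compares with 3.12% for all genes. For Ndufb2 there were 145 over the 4 samples, the only member with at least 100 read pairs for which the opposite strand held over 10% of them. Both values are above the limit of 3 counts.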

How the results depend on the processing

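No paired analysis was possible because each condition has 1 sample and the conditions share a single replicate number. Under 12 alternatives, 1222 of 1254 ratios of named members kept their call or, if not called, stayed within their counting interval, and no called ratio changed sign. Other filters and leaving out members cannot change a ratio. The ratios under those alternatives were therefore the same by construction, and only the other alternatives test them. Of 408 other values, 374 held, which means counts within 1.5 times and shares within their counting interval. Medians had to stay within a log2 of 0.074 to 0.075, the typical counting error of 1 member's ratio and not that of the median itself. With library totals in place of TMM, members higher in 2iJ+B−A than in 2iJ went from 0 to 1, the median ratio of TSC to 2iJ to 0.037, and members below the mESC range from 5 to 2 (3 with DESeq2 size factors). A pseudocount of 0.1 CPM also gave 1 member higher in 2iJ+B−A, and one of 1 CPM left 0 at least 2‐fold apart there. Without a filter 2 members were lower in 2iJ than in 2i−L. With members of at least 10 CPM, added after the data were seen, 0 were lower and 0 were 2‐fold apart in 2iJ over 2i−L, and 1 was lower and 0 were 2‐fold apart in 2iJ+B−A over 2iJ. Leaving out the 44 members with over 40% of the transcript matched elsewhere gave 7 higher in TSC than in 2iJ and 5 above the mESC range. The share of all gene counts then was 0.5177, 0.5014, 0.4814 and 0.5045% in 2i−L, 2iJ, 2iJ+B−A and TSC. It was 1.258, 1.22, 1.19 and 1.198% with mitochondrially encoded genes out of the total, and 1.219, 1.179 and 1.141% in the mESC samples with the unstranded count. The cause of these changes was not tested. With 1 sample per condition, differences of the size seen between mESC samples cannot be told apart from variation between cultures.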

Other observations

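Among 13713 genes outside the rule whose levels spanned at least as much, the 3 with a profile over the 4 samples nearest to the median profile of the members were Rplp2‐ps1, Tfam and Ywhae, at root mean square distances of 0.00394, 0.00842 and 0.0123 on the centred log2 scale. The median profile itself was 0.098, 0.02, −0.083 and −0.029 in 2i−L, 2iJ, 2iJ+B−A and TSC. With 4 points this is a description of likeness only.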
